A study of Homo sapiens with 9 samples.

Results

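The genes described here are 10 attractant and growth-factor genes that airway epithelium can express to recruit and sustain leukocytes. They are the chemokine ligands CXCL1, CXCL2, CXCL3, CXCL5, CXCL8, CXCL16, CCL2, CCL20 and CX3CL1 and the colony-stimulating factor CSF2, also called GM-CSF. The 10 genes were picked by name from the 63187 genes of the count table. Of these, 6 had at least 10 counts in at least 3 of the 9 libraries and were tested, among 16030 genes tested in all. The other 4, CXCL5, CCL20, CX3CL1 and CSF2, were under 10 counts in at least 7 libraries, and their values are given as counts.

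The study exposed BEAS-2B cells, an immortalized line from human bronchial epithelium grown in DMEM with fetal bovine serum, for 24 h to aerosol condensate at a 2% (v/v) dilution, and compared their transcriptomes. PG/VG stands for condensate from the carrier alone (propylene glycol with vegetable glycerin), and EC for condensate from a liquid that also held 18 mg/mL nicotine and a Virginia tobacco flavor. Untreated cells were the control, and each condition has 3 libraries, numbered 2, 3 and 4 as replicate and as batch. The comparisons ask what each condensate does to the transcriptome and what nicotine and flavor add to the carrier, whose parts in EC cannot be told apart because they came together. BEAS-2B is a single cell line and RNA, not secreted protein, was measured. The study's methods call the replicates of a condition biological. Except where the batch is left out of the model, p-values rest on the spread left between these libraries after batch differences are taken out.

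Chemokines are small secreted or membrane-bound proteins that guide leukocytes along a gradient through G protein-coupled receptors. CXCL1, CXCL2, CXCL3, CXCL5 and CXCL8 (interleukin-8) carry the ELR motif and attract neutrophils through CXCR2, CCL2 attracts monocytes through CCR2, CCL20 attracts CCR6-bearing lymphocytes and dendritic cells, and CXCL16 and CX3CL1 are made as transmembrane proteins that can be shed. In airway epithelium many of these genes, and CSF2, are induced by interleukin-1 and TNF through NF-kB, and their mRNAs are short-lived.

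In EC vs. control, CXCL16 was higher, with a log2 fold change (LFC) of 0.67, and it was the 1 member called of the 6 tested, where 13.5% of all genes tested were called (8.07% higher and 5.38% lower). In PG/VG vs. control none of the 6 was called by edgeR, against 4.54% of all genes (2.63% higher and 1.9% lower). At an unadjusted p under 0.05 in edgeR there was 1, CXCL16, against 20.1% of all genes. DESeq2 with the batch called none either, but 2 of the 6 got no adjusted p there. ComBat-Seq with DESeq2, the route of the study's methods, called CXCL16 (adjusted p = 0.0186) and 1735 genes in all. In EC vs. PG/VG, CXCL2 was higher, with an LFC of 1.02, and it was again the 1 member called, against 0.855% of all genes. A gene was called when its Benjamini-Hochberg adjusted p in edgeR's quasi-likelihood test, with the batch in the model, was under 0.05. The median LFC of the 6 was 0.39, −0.12 and 0.27 in these comparisons, and that of all genes tested 0.01, 0.01 and 0.00. Other members differed by batch: CXCL8 and CXCL1 were higher in batch 4 whatever the treatment. EC and PG/VG were set against the same control libraries, and all comparisons come from 1 fit, so they are not independent of each other. RNA was taken from whole cultures, where fewer cells of a type and less RNA per cell cannot be told apart.

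Batch 4 stood apart in all conditions. Deviations from the condition mean correlated at 0.648 to 0.707 between libraries of batch 4. They correlated at 0.334 to 0.399 between same-numbered libraries of batches 2 and 3, and at 0.280 to 0.426 across these batches. A difference among the batches was called for 34.3% of the genes tested. The libraries held 16168260 to 24917838 counts on genes. The keratins KRT7, KRT8 and KRT18 were abundant in all libraries, while KRT5, a basal cell keratin, had at most 1 count in a library and EPCAM and CDH1 11 to 47 and 3 to 31 counts. The summed level of the 7 epithelial markers was 1460 to 1776 CPM (counts scaled to library size by TMM) in batch 4 and 2043 to 2844 CPM in batches 2 and 3. Of the 8 leukocyte markers, PTPRC (CD45) had at most 2 counts in a library and CD3E none, while CD14 had 58 to 209 counts and ITGAM 4 to 36. The sum of the 8 was 4.00 to 9.62 CPM, most of it from CD14.

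The stretch before the transcription start of CXCL1, CXCL2, CXCL8 and CXCL5 is shown from 110 to 51 bases upstream, because these neutrophil attractants share an NF-kB site there and differed in level and in the comparisons that called them. The sequences are RefSeq's, on GRCh38.p14, each written 5′ to 3′ on the gene's own strand, and capitals mark the match to the NF-kB motif GGAATTTCC.
CXCL1, chr4:73869283-73869342, plus strand: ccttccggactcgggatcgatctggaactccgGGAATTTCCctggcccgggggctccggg
CXCL2, chr4:74099246-74099305, minus strand: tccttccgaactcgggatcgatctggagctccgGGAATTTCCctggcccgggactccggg
CXCL5, chr4:73998728-73998787, minus strand: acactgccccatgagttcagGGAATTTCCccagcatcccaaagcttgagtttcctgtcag
CXCL8, chr4:73740459-73740518, plus strand: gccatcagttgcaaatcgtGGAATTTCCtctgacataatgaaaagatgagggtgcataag

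The RefSeq promoter table, which holds 250 bases before and 50 after a start, had an entry for 7 of the 10 members. CCL2, CXCL16 and CX3CL1 had no entry. GGAATTTCC was searched on both strands and was found in 5 of the 7, once each, starting at −78 in CXCL1, −77 in CXCL2, −78 in CXCL3, −90 in CXCL5 and −91 in CXCL8. These letters were absent from the windows of CCL20 and CSF2, and 0.461% of 35116 promoters of the same length held them. The AP-1 motif TGANTCA was in 7.71% of promoters and, among the members, in CXCL8 at −137. The core of the aryl hydrocarbon receptor motif, GCGTG, was in 36.5% of promoters and in the windows of CXCL5 and CCL20. A match is a run of letters, not evidence of binding. The 5 genes with the NF-kB match lie on chromosome 4 between positions 73740519 and 74099196 (GENCODE release 44, GRCh38), and the canonical transcripts of CXCL1 and CXCL2 were 91.1% identical over 1094 aligned bases. CXCL3 was 82.2% identical to CXCL1 and 83.6% to CXCL2. No window of 150 bases of these transcripts was found in another gene, so reads of that length would be distinct, while reads that map to more than 1 copy were dropped in counting.

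Per kb of the union of annotated exons, CXCL1 was the highest member in control cells, at 6.37 ± 2.30 CPM per kb (SD, n = 3). CCL2 followed with 3.42 ± 0.567, CXCL16 with 2.98 ± 0.361 and CXCL8 with 2.42 ± 1.24 CPM per kb, and the SD ranges of these 3 overlapped. CXCL2 had 1.37 ± 0.149 and CXCL3 0.365 ± 0.367 CPM per kb. In EC cells the order was CXCL1 at 5.65 ± 0.690, CXCL16 at 4.75 ± 0.422 and CCL2 at 4.74 ± 1.29 CPM per kb, whose SD ranges overlapped. CXCL8 at 2.98 ± 1.45, CXCL2 at 2.00 ± 0.340 and CXCL3 at 0.389 ± 0.0441 CPM per kb followed. The order depends on the length used. The union of exons is 1935 bases for CCL2 and 1362 for CXCL1, while their canonical transcripts are 741 and 1174 bases. Per kb of canonical transcript, CCL2 would have a higher mean than CXCL1 in control and EC cells.

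**Figure D1:**
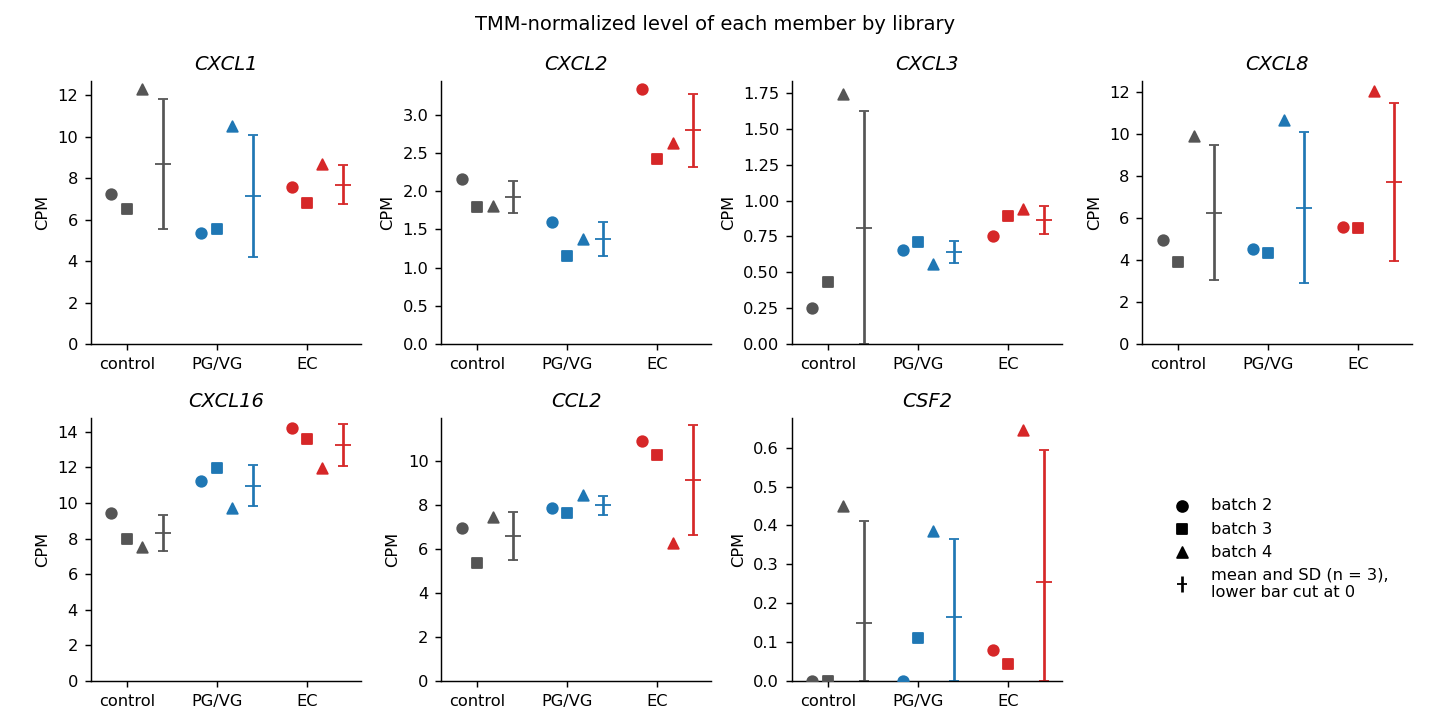
Level of the 6 tested members and CSF2 in each library, in TMM-normalized CPM from 0 on a linear axis, by condition, with the marker shape giving the batch and bars giving the mean and SD of 3 libraries (lower bar ended at 0). CXCL2 is highest in the EC libraries, and the EC libraries of CXCL16 lie above control but overlap PG/VG. The batch 4 triangles of CXCL8, CXCL1 and CSF2 lie above the other libraries.

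CXCL2, a neutrophil attractant also known as MIP-2-alpha, had 34, 29 and 32 counts in control replicates 2, 3 and 4, 39, 21 and 32 counts in the PG/VG replicates and 84, 57 and 53 counts in the EC replicates. Its levels were 2.16, 1.80 and 1.80 CPM in control, 1.60, 1.15 and 1.37 CPM in PG/VG and 3.33, 2.43 and 2.63 CPM in EC cells. The conditions did not overlap, with PG/VG lowest, control between and EC highest. Of all genes, 6.37% had all PG/VG libraries below the controls and 9.83% had all EC libraries above them. EC vs. PG/VG gave a fold change of 2.03 (95% CI 1.47 to 2.79; LFC 1.02, SE 0.22, adjusted p = 0.0292 in edgeR with Benjamini-Hochberg adjustment), and the log2 difference was 1.06, 1.08 and 0.94 in batches 2, 3 and 4. All EC libraries lay above all PG/VG libraries in 4.54% of all genes. The LFC was 0.54 (SE 0.22, adjusted p = 0.114) in EC vs. control and −0.48 (SE 0.24, adjusted p = 0.277) in PG/VG vs. control, neither of which passed the test. The call rests on all 6 EC and PG/VG libraries: with any of them left out the adjusted p was 0.0592 to 0.222, while the LFC stayed between 0.98 and 1.07. Without the replicate block it was 0.9999, and DESeq2 with the batch gave an LFC of 1.02 with an unadjusted p of 0.000833 and no adjusted p at this low count.

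CXCL1, the related attractant GRO-alpha, had 114, 105 and 218 counts in control, 131, 101 and 245 in PG/VG and 191, 160 and 175 in EC replicates 2, 3 and 4. These were 7.24, 6.50 and 12.3 CPM, 5.37, 5.53 and 10.5 CPM and 7.58, 6.81 and 8.68 CPM. Batch 4 was the highest library in each condition, and the conditions overlapped. The LFC was −0.13 (95% CI −0.44 to 0.18) in EC vs. control, −0.29 (−0.60 to 0.02) in PG/VG vs. control and 0.16 (−0.14 to 0.46) in EC vs. PG/VG, with adjusted p of 0.625, 0.283 and 0.709. Within batches the EC vs. control difference was 0.07, 0.07 and −0.50.

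CXCL8, the neutrophil attractant most used as a marker of airway epithelial activation, had 78, 63 and 176 counts in control, 110, 79 and 248 in PG/VG and 140, 130 and 243 in EC replicates. These were 4.96, 3.90 and 9.91 CPM, 4.51, 4.32 and 10.6 CPM and 5.55, 5.53 and 12.1 CPM. The 3 libraries of batch 4 were the highest of all 9, and the spread between batches covered that between conditions. In EC vs. control the LFC was 0.31 (95% CI 0.02 to 0.60, adjusted p = 0.150), with batch differences of 0.16, 0.50 and 0.28, and in PG/VG vs. control it was 0.04 (−0.25 to 0.34, adjusted p = 0.908). In EC vs. PG/VG it was 0.27 (−0.01 to 0.55, adjusted p = 0.410).

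CXCL3, the third of the GRO genes, had 4, 7 and 31 counts in control, 16, 13 and 13 in PG/VG and 19, 21 and 19 in EC replicates. Control replicate 4 stood at 1.75 CPM, above all other libraries, and control replicates 2 and 3, at 0.254 and 0.434 CPM, stood below them. The PG/VG libraries had 0.558 to 0.711 CPM and the EC libraries 0.754 to 0.942 CPM. No difference passed the test: the LFC was 0.16 (SE 0.44, adjusted p = 0.860) in EC vs. control, −0.27 (SE 0.47, adjusted p = 0.803) in PG/VG vs. control and 0.43 (SE 0.44, adjusted p = 0.739) in EC vs. PG/VG. Without control replicate 4 the values against control were 1.32 (adjusted p = 0.106) and 0.90 (adjusted p = 0.405). CXCL5 (ENA-78), whose promoter stretch is shown above, had 1 count in all 9 libraries together, in PG/VG replicate 2, and 17.3% of its exon length overlaps another gene. A count of 0 allows up to 3 counts, or 0.119 to 0.191 CPM depending on the library, for counting error alone.

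CXCL16, which binds CXCR6 on T cells and also takes up oxidized lipoprotein, had 149, 129 and 134 counts in control, 274, 219 and 227 in PG/VG and 359, 319 and 241 in EC replicates. These were 9.47, 7.99 and 7.54 CPM in control, 11.2, 11.98 and 9.74 CPM in PG/VG and 14.2, 13.6 and 11.95 CPM in EC cells. Both treated conditions lay above all controls, which 9.83% of all genes did in EC and 7.79% in PG/VG, and PG/VG replicate 3 reached past EC replicate 4. EC vs. control gave a fold change of 1.59 (95% CI 1.35 to 1.88; LFC 0.67, SE 0.12, adjusted p = 0.000507 in edgeR with Benjamini-Hochberg adjustment), with 0.59, 0.77 and 0.66 in batches 2, 3 and 4. PG/VG vs. control gave 0.40 (SE 0.12, adjusted p = 0.0593), and EC vs. PG/VG 0.27 (SE 0.11, adjusted p = 0.275). The EC vs. control call held in 15 of 16 alternatives, including each of the 9 fits with a library left out, and was lost without the replicate block (adjusted p = 0.133). The PG/VG value passed in the route of the study's methods, ComBat-Seq followed by DESeq2 (adjusted p = 0.0186). The gene spans positions 4733533 to 4739928 of chromosome 17 on the minus strand, and 6.16% of its exon length overlaps MED11 and ZMYND15 on the other strand.

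CXCL16 had the highest mean count of the members, 227.9, and the genes whose pattern was most like it over the 9 libraries were SLC6A8, GPX3 and LYPD5. After the batch mean was removed from the log2 CPM, Pearson's r with CXCL16 was 0.993, 0.991 and 0.990, the highest among 16029 genes. The libraries share depth and conditions, so r is a description. SLC6A8, a creatine transporter, was higher than in control by an LFC of 0.45 with EC and 0.27 with PG/VG, with adjusted p of 0.000236 and 0.0334. GPX3, a glutathione peroxidase, had 0.53 and 0.33, with adjusted p of 8.19e-05 and 0.0162. LYPD5 had 1.06 with EC (adjusted p = 0.0170) and 0.64 with PG/VG, which did not pass the test (adjusted p = 0.239).

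CX3CL1 (fractalkine), the other membrane-bound chemokine, had 4 counts in the 9 libraries, with 1 each in control replicates 2 and 4 and PG/VG replicates 3 and 4. The exact Poisson interval of this sum is 1.09 to 10.2 counts. Its level was not distinguishable from 0 in any condition at this depth.

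CCL2 (MCP-1), the monocyte attractant, had 110, 87 and 133 counts in control, 192, 140 and 198 in PG/VG and 275, 242 and 127 in EC replicates. These were 6.99, 5.39 and 7.49 CPM in control, 7.86, 7.66 and 8.49 CPM in PG/VG and 10.9, 10.3 and 6.30 CPM in EC cells. EC replicates 2 and 3 were the highest of the 9 libraries and EC replicate 4 lay among the controls. In EC vs. control the LFC was 0.47 (SE 0.18, adjusted p = 0.0930), from 0.64 and 0.93 in batches 2 and 3 and −0.25 in batch 4. Without EC replicate 4 it was 0.74 (adjusted p = 0.00513), without control replicate 4 it was 0.66 (adjusted p = 0.0340), and without both and PG/VG replicate 4 it was 0.77 (adjusted p = 0.00917). The PG/VG libraries lay above the controls by a narrow margin, as they did for 7.79% of all genes. The LFC was 0.27 (SE 0.18, adjusted p = 0.431) in PG/VG vs. control and 0.19 (SE 0.17, adjusted p = 0.693) in EC vs. PG/VG.

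CCL20 had 1 count in each control, 5, 2 and 1 counts in PG/VG and 2, 0 and 2 counts in EC replicates, or 15 in all (exact Poisson interval 8.40 to 24.7). No order of the conditions can be read from these counts.

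CSF2, a growth and survival factor for granulocytes and macrophages, had 0, 0 and 8 counts in control, 0, 2 and 9 in PG/VG and 2, 1 and 13 in EC replicates. Of its 35 counts, those in the 3 libraries of batch 4 stood at 0.450, 0.386 and 0.645 CPM, while the other 6 libraries ranged from 0 to 0.109 CPM. It was not tested in the filtered table because 1 library alone reached 10 counts. In the fit without a filter on low counts, the log2 difference of batch 4 from batches 2 and 3 was 3.51. The adjusted p was 9.76e-05 in edgeR's joint test of any difference among the 3 batches. In the same fit the LFC was 0.89 (SE 0.90, adjusted p = 0.869) in EC vs. control and 0.28 (SE 0.96) in PG/VG vs. control.

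**Figure D2:**
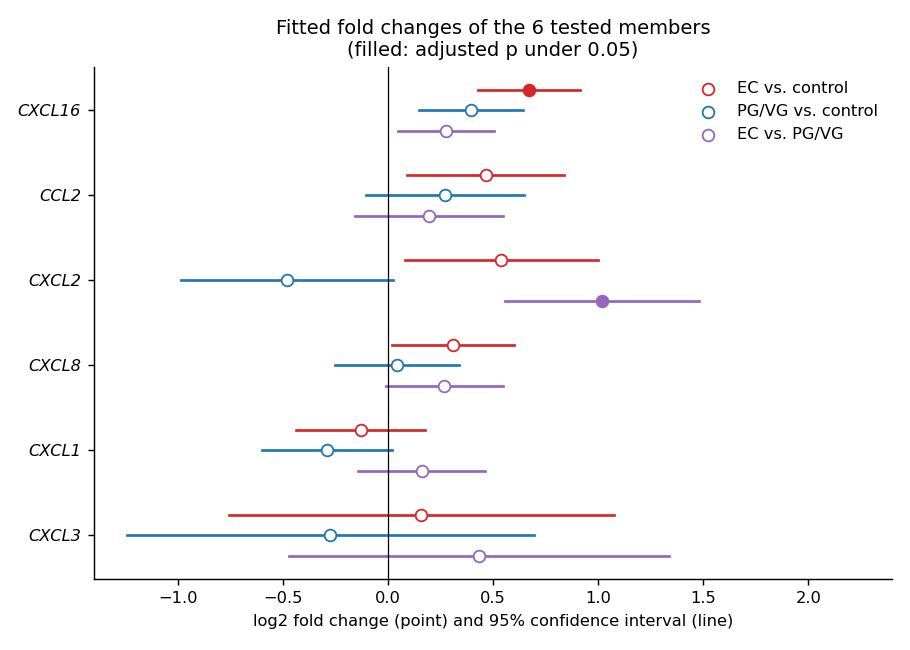
LFC of the 6 tested members in the 3 comparisons (horizontal axis, log2, colour by comparison), with lines for the 95% confidence interval and filled points for an adjusted p under 0.05. The filled points are CXCL16 in EC vs. control, at 0.67, and CXCL2 in EC vs. PG/VG, at 1.02, and CXCL2 is at −0.48 in PG/VG vs. control and 0.54 in EC vs. control.

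Tested over the batches with the treatment in the model, CXCL8 and CXCL1 differed, so 2 of the 6 members were called, and both were higher in batch 4, where 17.2% of all genes were called higher in batch 4 than in batches 2 and 3. Each adjusted p given with a batch difference is from edgeR's joint test of any difference among the 3 batches. It does not test batch 4 against the others. CXCL8 was 2.27-fold higher in batch 4 (log2 difference 1.19, adjusted p = 7.62e-08), at 10.9 ± 1.09 CPM against 5.01 ± 0.526 and 4.59 ± 0.847 CPM in batches 2 and 3 (SD, n = 3). CXCL1 was 1.61-fold higher (log2 difference 0.69, adjusted p = 0.000406), at 10.5 ± 1.80 CPM against 6.73 ± 1.19 and 6.28 ± 0.671 CPM. For each of them all 3 libraries of batch 4 lay above the other 6, as they did for 14.5% of all genes.

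CXCL2, CXCL3, CXCL16 and CCL2 had log2 batch differences of −0.08, 0.71, −0.23 and −0.12 and were not called (adjusted p 0.183 to 0.666). The batch calls of CXCL8 and CXCL1 held in all 12 alternatives that kept batch 4. Between batches 2 and 3 alone, no member and none of 15488 genes was called in edgeR, and 666 genes had an unadjusted p under 0.05, none of them a member.

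Among the cytokine and receptor genes that induce the members, 7 of 18 tested were higher in batch 4 and 1 lower, and among their transcription regulators 6 of 24 were higher and 6 lower, where 34.3% of all genes were called and 17.2% were higher in batch 4. IL1B, a cytokine that induces CXCL8, was 3.50-fold higher (log2 difference 1.81, adjusted p = 9.02e-13), at 80.9 to 109 CPM in batch 4 and 19.7 to 29.8 CPM in the others. The CXCL8 receptor gene CXCR2 had a log2 difference of 1.85 (adjusted p = 2.59e-05) and TNFAIP3, an NF-kB feedback inhibitor, 1.37 (adjusted p = 1.54e-10), the latter named after its value was seen. RELB and NFKB2, subunits of the noncanonical NF-kB pathway, were lower in batch 4, by −0.43 and −0.34. Of the 6 tested epithelial markers, 4 were called lower in batch 4, among them KRT7 with −0.97 and CDH1 with −2.08, and of the leukocyte markers ITGAM was higher (1.51) and CD14 lower (−0.85). The part of these markers, or of what the batches differed in, in the levels of CXCL8, CXCL1 and CSF2 was not tested.

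**Figure D3:**
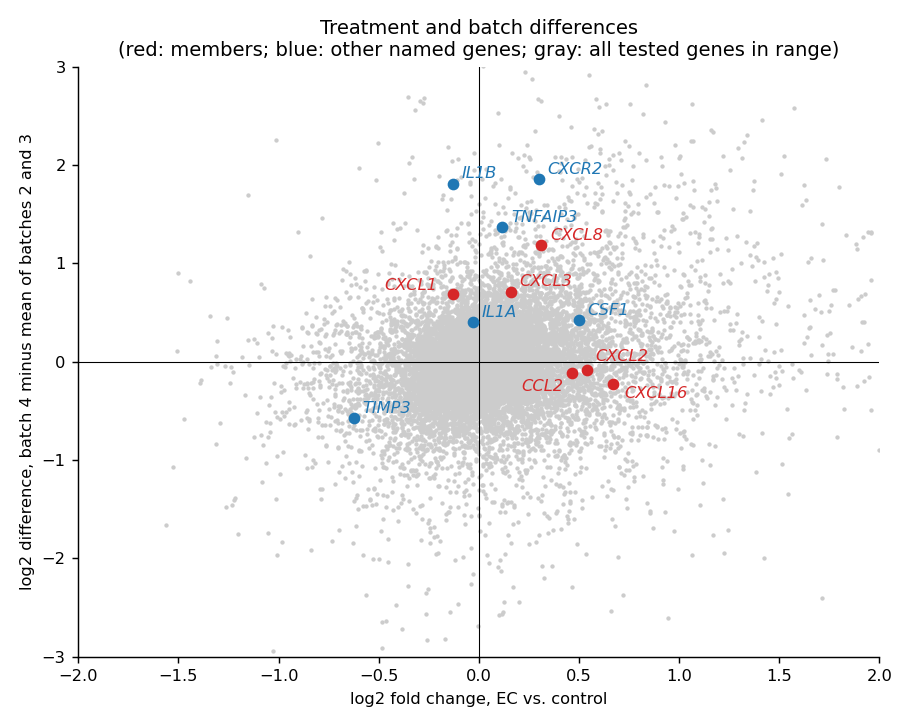
LFC in EC vs. control (horizontal axis, log2) against the log2 difference of batch 4 from the mean of batches 2 and 3 (vertical axis), for all genes tested within the axis limits (gray), the 6 tested members (red) and 6 other named genes (blue). CXCL16, CXCL2 and CCL2 lie to the right near 0 on the vertical axis, and CXCL8 lies at 1.19 on it, with IL1B at 1.81, CXCR2 at 1.85 and TNFAIP3 at 1.37 above.

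Receptors for the members were scarce. CXCR1, CCR2, CCR6 and CSF2RA had 0 counts in all 9 libraries and CX3CR1 at most 2. For CCR6, 85.2% of the exon length overlaps another gene, and reads on both genes were not counted, so its 0 says little of its level. CXCR2 had 11 to 77 counts, CXCR6, the receptor of CXCL16, 10 to 27 and CSF2RB 6 to 24, and none of these 3 was called between conditions (LFC −0.57 to 0.30). Of 26 receptor genes, 8 were tested. CXCR4, the receptor of CXCL12, had 3, 2 and 6 counts in control, 4, 3 and 12 in PG/VG and 12, 5 and 29 in EC replicates, so it passed the filter through treated libraries alone. It was the 1 receptor called of the 8, with an LFC of 1.63 in EC vs. control (SE 0.51, adjusted p = 0.0374), where 13.5% of all genes were called. Since it entered the test through the groups where it was higher, the call is not read as a result. The call was lost with no filter on low counts (0.0864), in the ComBat-Seq route (0.137) and without control replicate 2, 3 or 4 (0.0606 to 0.343). With 6 of the 9 libraries left out in turn CXCR4 could be tested, and with the other 3 it was under the filter. The median LFC of the tested receptors, CXCR4 included, was 0.12 in EC vs. PG/VG, and against control it was 0.36 in EC and 0.13 in PG/VG.

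Of 31 other chemokine ligands, 5 were tested (CXCL6, CXCL11, CCL5, CCL26 and CCL28) and none was called in any comparison. Of all genes, 13.5% were called in EC vs. control, 4.54% in PG/VG vs. control and 0.855% in EC vs. PG/VG. Their median LFC was 0.33 in EC vs. PG/VG, and against control it was 0.42 in EC and 0.44 in PG/VG. CXCL11, an interferon-induced ligand of CXCR3, had 1.48 (SE 0.55, adjusted p = 0.0754) in EC vs. control, with 67 counts in all. With 4, 2 and 3 counts in control replicates 2, 3 and 4, it passed the filter through treated libraries alone, and the medians include it. The other 26 ligands had at most 8 counts in all 9 libraries, CXCL10, CXCL12 and CCL3 among them. For CCL3, 74.6% of the exon length overlaps another gene, and for CCL27 100%, so their low counts say little of their level.

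Of the other colony-stimulating factors, CSF1, which sustains macrophages, was tested and CSF3 and IL34 were not. CSF1 had 36.0, 34.2 and 49.8 CPM in control, 49.5, 48.1 and 64.8 CPM in PG/VG and 51.2, 51.3 and 65.9 CPM in EC cells, highest in batch 4 of each condition and higher in the treated library of each batch. It rose by an LFC of 0.50 (SE 0.08, adjusted p = 0.000137) in EC vs. control and 0.44 (SE 0.08, adjusted p = 0.00176) in PG/VG vs. control. Both calls held in 15 of 16 alternatives and were lost without the replicate block. CSF1 also differed among the batches, with 0.42 more on the log2 scale in batch 4.

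Of 23 cytokines that induce these genes and their receptors, 18 were tested, and 6 rose and none fell in EC vs. control, where 8.07% of all genes rose and 5.38% fell. Their median LFC was 0.17. TLR3, the sensor of double-stranded RNA, rose by 0.73 (SE 0.10, adjusted p = 6.56e-05) and LIF, an interleukin-6 family cytokine, by 0.57 (SE 0.09, adjusted p = 0.000202). TRAF3IP2 and IL17RA, the adaptor and receptor of interleukin-17, rose by 0.36 and 0.28, and IL1R1 and TLR2, named after their values were seen, by 0.52 and 0.91. None of these 4 calls held with every library left out in turn: TRAF3IP2 was lost without control replicate 3 (adjusted p = 0.0653), IL17RA without control replicate 2 or 3 or EC replicate 4 (0.0740 to 0.136), and IL1R1 and TLR2 kept their calls in 4 and 2 of 9 fits with a library left out.

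The interleukin-1 genes were lower with the carrier alone. In PG/VG vs. control 1 of the 18 tested genes of this list rose and 2 fell, where 2.63% of all genes rose and 1.9% fell. TLR3 rose by 0.44, and IL1A fell by −0.55 (SE 0.12, adjusted p = 0.0115) and IL1B by −0.47 (SE 0.10, adjusted p = 0.00856). The median LFC of the list was 0.06. IL1A had 17.7, 13.6 and 17.8 CPM in control, 9.05, 9.85 and 14.9 CPM in PG/VG and 14.4, 15.0 and 18.8 CPM in EC cells, lower in PG/VG than in control in each batch. In EC vs. PG/VG it was the 1 gene of the list called, with an LFC of 0.52 (SE 0.12, adjusted p = 0.0391), where 0.855% of all genes were called. Without PG/VG replicate 2 it was called in neither comparison (adjusted p = 0.166 and 0.411). Its PG/VG vs. control call was also lost without control replicate 2 (0.122) and its EC vs. PG/VG call without PG/VG replicate 3 or any EC replicate (0.0785 to 0.113). IL1B was lost without control replicate 4 or PG/VG replicate 2 (0.0911 and 0.0876), and TLR3 without replicate 3 or 4 of either group (0.0506 to 0.127). In EC vs. control IL1A and IL1B had LFCs of −0.03 and −0.13 and did not pass the test.

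All 24 transcription regulators were tested, and in EC vs. control 6 rose and 1 fell, against 8.07% and 5.38% of all genes, with a median LFC of 0.12. RELB and NFKB2 rose by 0.55 (SE 0.10, adjusted p = 0.000483) and 0.45 (SE 0.08, adjusted p = 0.000453), and BIRC3, an NF-kB target and inhibitor of apoptosis, by 0.55. JUNB, an AP-1 subunit, rose by 0.53, CEBPD, a C/EBP factor of the acute-phase response, by 0.51 and NFKBIE, an inhibitor of NF-kB, by 0.39. JUN, named after its value was seen, fell by −0.26. The canonical subunits RELA, NFKB1 and REL were not called. Of these calls, those of NFKBIE and JUN were lost with 1 library left out: NFKBIE without EC replicate 4 (adjusted p = 0.0885) and JUN without control replicate 3 or EC replicate 3 (0.0959 and 0.0602).

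In PG/VG vs. control 1 of the 24 regulators rose and 2 fell, where 2.63% of all genes rose and 1.9% fell. NFKB2 rose by 0.38 (SE 0.08, adjusted p = 0.00576), and JUN and CEBPB fell by −0.28 and −0.31. NFKB2 was lost without PG/VG replicate 2 (adjusted p = 0.0580), CEBPB without that library, PG/VG replicate 4 or control replicate 3 (0.0829 to 0.137), and JUN without replicate 3 or 4 of either group (0.0600 to 0.135). In EC vs. PG/VG 1 of the 24 was called, CEBPD, where 0.855% of all genes were. Its LFC was 0.59 (SE 0.11, adjusted p = 0.0105), and the call was lost without PG/VG replicate 3 or 4 or EC replicate 4 (0.0546 to 0.0971). The median LFC of the list was 0.05 in each of these comparisons.

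Of 9 regulators of mRNA stability, which shorten or lengthen the life of AU-rich transcripts such as those of CXCL8 and CSF2, 1 rose and 1 fell in EC vs. control, against 8.07% and 5.38% of all genes. ZFP36L2, a decay factor, rose by 0.27 (SE 0.08, adjusted p = 0.0340) and HNRNPD (AUF1) fell by −0.27 (SE 0.07, adjusted p = 0.0130), with a median of −0.00 over the list. Each was lost without control replicate 3, control replicate 4 or EC replicate 4 (adjusted p 0.112 to 0.355 for ZFP36L2 and 0.0529 to 0.112 for HNRNPD). None was called in PG/VG vs. control or EC vs. PG/VG in edgeR, where 4.54% and 0.855% of all genes were.

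Of 7 genes that process membrane-bound chemokines such as CXCL16, 2 rose and 1 fell in EC vs. control, against 8.07% and 5.38% of all genes, with a median LFC of 0.16. TIMP3, an inhibitor of the sheddase ADAM17, had 177, 189 and 114 CPM in control, 157, 159 and 120 CPM in PG/VG and 120, 116 and 74.8 CPM in EC cells. It was lowest in EC in each batch, with an LFC of −0.63 (SE 0.07, adjusted p = 8.94e-06) in EC vs. control and −0.51 (SE 0.07, adjusted p = 0.000787) in EC vs. PG/VG, held in 15 of 16 alternatives each. ADAM17 rose by 0.28 (SE 0.08, adjusted p = 0.0176) and RHBDF2 (iRhom2), which brings ADAM17 to the surface, by 0.28 (SE 0.08, adjusted p = 0.0211). ADAM10, the other sheddase of CXCL16, was not called. The call of ADAM17 was lost without control replicate 3 or 4 or EC replicate 3 or 4 (0.0846 to 0.149), and that of RHBDF2 without control replicate 2 or 4 or EC replicate 4 (0.108 to 0.208).

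**Figure D4:**
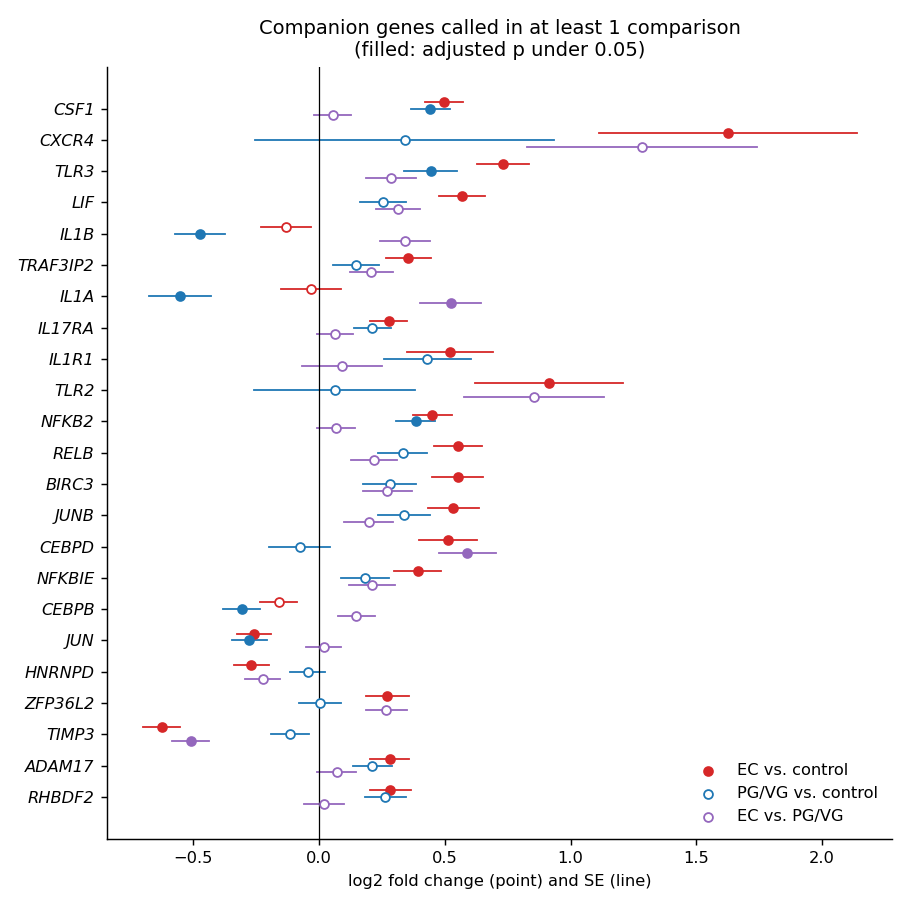
LFC (horizontal axis, log2) with its SE for the companion genes called in at least 1 comparison, with filled points for an adjusted p under 0.05. TLR3, RELB, BIRC3, JUNB and CEBPD lie to the right in EC vs. control and TIMP3 at −0.63 to the left, while IL1A and IL1B lie to the left in PG/VG vs. control, at −0.55 and −0.47.

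Some markers of cell identity, 3 keratins, were called lower with EC. KRT7, KRT8 and KRT18 were lower in EC vs. control, by −0.45, −0.25 and −0.46. This is 3 of the 6 tested epithelial markers, where 5.38% of all genes were called lower. The other tested markers had positive LFCs that did not pass the test, 0.18 for KRT19, 0.57 for EPCAM and 0.36 for CDH1. In EC vs. PG/VG KRT7 was lower by −0.32 (adjusted p = 0.0320 in edgeR), where 0.299% of all genes were called lower. The summed level of the list, most of it from KRT7, KRT8 and KRT18, was 1776 to 2844 CPM in control, 1721 to 2737 CPM in PG/VG and 1460 to 2287 CPM in EC cells. The leukocyte markers CD14 and ITGAM were not called in any comparison between conditions. The part of the keratin change in the CXCL16 and CXCL2 results was not tested.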

How the data were processed

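The deposited table holds raw counts per gene, which the authors made from 9 poly(A) RNA libraries of BEAS-2B cells with fastp, STAR (GRCh38.p12) and featureCounts (Subread 2.0.4) at the exon level, ignoring multi-mapping and multi-overlapping reads. The strand setting is not given in the sources used here, so antisense overlap is stated for named members. From these counts, genes that reached 10 counts in 3 or more libraries entered edgeR 4.0.16 (R 4.3.3): TMM scaling, 1 robust quasi-likelihood fit of all 9 libraries with condition and batch, and Benjamini-Hochberg adjustment over 16030 genes. Replicate and batch carry the same number in the labels. The number was kept as a replicate block, because the study's methods adjust for batch. Same-numbered libraries correlated in all 9 pairs (0.334 to 0.707, against −0.539 to 0.426 for other pairs), but this set only batch 4 apart, with 0.648 to 0.707. Same-numbered pairs of batches 2 and 3 had 0.334 to 0.399, and pairs of a batch 2 with a batch 3 library 0.280 to 0.426. SE is the absolute LFC over the root of the test statistic. CPM per kb divides by the union of GENCODE release 44 exons. Log2 differences within a batch are ratios of CPM without a prior count, and the log2 CPM used for correlations has a prior count of 2. The counts per library, 16168260 to 24917838, set a floor of 3 counts at 0.119 to 0.191 CPM. Intervals and floors cover counting error only. No replicate pair was a duplicate (chi-square per gene at least 3.88).

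The members and companion lists were chosen with earlier results of these data known. Named from each companion list were up to 6 called genes with the smallest adjusted p, the members' receptors, and the 3 genes most like the member with the highest mean count. Alternatives were RLE scaling, no filter, 10 counts in every library, no block, DESeq2 1.42.0 with batch, ComBat-Seq (sva 3.50.0) with DESeq2 without shrinkage, each library left out and batch 4 left out. The fits were tested on simulated counts.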

Additional observations from a re-analysis of the deposited data

How the results depend on the processing

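The directions of the called members, and of the companions whose treatment calls are named, did not change under any alternative run. The marker genes, and batch differences other than those of the members, IL1B, CXCR2 and TNFAIP3, were not recomputed. The replicate numbers were used as pairing. With no replicate block, EC vs. control had 0 called members and 16 called genes in place of 2157, PG/VG vs. control 1 gene in place of 727, and EC vs. PG/VG 0 members and 1 gene in place of 137, and the adjusted p of CXCL16 in EC vs. control was 0.133 and that of CXCL2 in EC vs. PG/VG 0.9999. Without a filter on low counts, 2 members were called in EC vs. control, CCL2 added with an LFC of 0.48 (adjusted p = 0.0205), and 309 genes in EC vs. PG/VG. ComBat-Seq with DESeq2 called 1 member and 1735 genes in PG/VG vs. control and 0 members and 658 genes in EC vs. PG/VG. DESeq2 with the batch called 0 members in EC vs. PG/VG. In both routes CXCL2 got no adjusted p, since DESeq2 sets it aside for its low mean, with an unadjusted p of 0.000833 and 7.39e-05. Whether its call holds or is lost in these routes can therefore not be read.

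With each library left out in turn, EC vs. control gave 1 to 2 called members and 1162 to 2172 genes, PG/VG vs. control 0 members and 192 to 1084 genes, and EC vs. PG/VG 0 to 1 members and 32 to 208 genes. Without batch 4 the members called were 2, 0 and 0, the genes 1216, 324 and 80, and a difference between the batches left was called for 0 members and 0 genes, where with batch 4 and a library left out 3926 to 5465 genes were called. The LFCs that changed sign were small or rested on few counts. In EC vs. control CXCL1 ranged from −0.28 to 0.075 with a library left out and was 0.05 without batch 4, and CXCL3 ranged from −0.25 to 1.32. In PG/VG vs. control CXCL3 ranged from −0.69 to 0.90 and was 0.97 without batch 4, and CXCL8 ranged from −0.026 to 0.11 and was −0.02. In EC vs. PG/VG CXCL3 ranged from −0.060 to 0.76. The batch 4 differences of CXCL3 and CCL2 ranged from −0.020 to 1.14 and from −0.29 to 0.20. The cause of these changes was not tested. At 1 to 35 counts in all libraries, CXCL5, CX3CL1, CCL20 and CSF2 were too shallow to compare between conditions.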
